A study of Mus musculus with 192 samples.

Results

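The pair PAM+CpGB was compared with each of its ligands given alone in mouse bone marrow-derived dendritic cells. The comparison used 9 libraries, chosen by their labels, of a series with 64 groups of 3 libraries: 3 of cells given PAM and CpGB together, 3 of cells given PAM alone and 3 of cells given CpGB alone. The series covers 7 ligands of pattern recognition receptors alone, in 21 pairs and in 35 triplets, and 3 libraries of its control group, Ctrl, served as the base. The cells came from bone marrow of female C57BL/6J mice aged 6 to 8 weeks, were grown with the growth factor GM-CSF at 15 ng/mL, and were stimulated for 6 hours in wells of 100000 cells. The labels give no dose, so it is not known here whether the pair held each ligand at its single dose, and they do not say whether the 3 libraries of a group came from separate cultures, so all p-values measure the spread between these libraries. Values are counts of unique molecular identifiers, short random tags that mark single cDNA molecules, and levels are given as CPM, the count of a gene scaled to its library's total after edgeR's TMM correction. In these bulk wells fewer responding cells and less RNA per cell cannot be told apart.

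As background, CpGB names a class B CpG oligonucleotide, a synthetic DNA that is sensed by TLR9 in endosomes. PAM is given in the labels by this short name alone, which in this field usually stands for a lipopeptide sensed by TLR2 at the cell surface. Both receptors signal through the adaptor MyD88 to NF-kB, which drives inflammatory cytokine and chemokine genes. TLR9 can in addition engage interferon regulatory factors, so that type I interferon and the genes it induces, such as Ifit1, Isg15 and Mx1, are made.

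The libraries showed 3 patterns of response among the genes described here. Il1b and Saa3 overlapped PAM in the pair and passed the edgeR test as higher than with CpGB, by less than 2-fold. Other abundant inflammatory genes such as Tnf, Ccl3 and Irg1 were within 2-fold of both ligands. The chemokine genes Cxcl1 and Cxcl3, higher with PAM than with CpGB, also kept close to the PAM level. Interferon-induced genes such as Rsad2, high with CpGB, lay between both single ligands. Ifit1 did so in mean, with pair libraries that overlapped those of CpGB. For the latter patterns, the 250 bases before the annotated start of 4 genes are shown from RefSeq (GRCm38.p6, the release of the mm10 assembly), 5′ to 3′ on the gene's strand. Capitals mark 2 motifs searched on both strands: TTTC, any 2 bases and TTTC, a core of the interferon-stimulated response element, and GGGA, any 2 bases and TTCC, a form of the NF-kB site.
Ifit1, chr19:34640639-34640888, plus strand: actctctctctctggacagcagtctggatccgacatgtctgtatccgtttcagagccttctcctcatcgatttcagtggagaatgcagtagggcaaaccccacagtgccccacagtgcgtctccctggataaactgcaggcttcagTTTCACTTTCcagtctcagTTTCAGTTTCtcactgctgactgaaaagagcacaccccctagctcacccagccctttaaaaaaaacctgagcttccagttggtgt
Rsad2, chr12:26456453-26456702, minus strand: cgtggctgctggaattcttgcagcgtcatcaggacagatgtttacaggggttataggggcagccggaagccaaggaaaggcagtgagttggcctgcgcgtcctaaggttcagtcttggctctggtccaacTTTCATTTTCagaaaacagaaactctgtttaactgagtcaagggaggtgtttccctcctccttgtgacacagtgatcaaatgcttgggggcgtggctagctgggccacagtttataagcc
Cxcl1, chr5:90890995-90891244, plus strand: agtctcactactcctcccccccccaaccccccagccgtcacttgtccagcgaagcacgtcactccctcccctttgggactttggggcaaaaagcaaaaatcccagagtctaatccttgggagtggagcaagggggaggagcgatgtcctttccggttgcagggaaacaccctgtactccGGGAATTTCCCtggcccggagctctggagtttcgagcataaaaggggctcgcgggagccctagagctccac
Cxcl3, chr5:90785851-90786100, plus strand: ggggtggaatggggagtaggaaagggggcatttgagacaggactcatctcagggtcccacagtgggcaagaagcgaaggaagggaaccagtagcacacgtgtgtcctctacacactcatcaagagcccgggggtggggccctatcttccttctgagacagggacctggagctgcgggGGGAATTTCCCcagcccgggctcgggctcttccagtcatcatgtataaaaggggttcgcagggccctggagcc
Ifit1 held 2 response-element matches, beginning 104 and 85 bases before the start, and Rsad2 held 1, beginning 120 bases before it. Cxcl1 and Cxcl3 each held a run of 11 capitals in which the NF-kB motif matched once on each strand, beginning 71 and 73 bases before the start. Over 27025 RefSeq mouse genes with such a window, 3.46% held the response-element motif and 1.36% the NF-kB motif. Of the 26 interferon response genes tested, 21 had a window and 12 of these held the response-element motif. Of the 11 genes called higher in the pair than with CpGB alone, 9 had a window and 2 held the NF-kB motif, Cxcl1 and Cxcl3. The NF-kB motif was not particular to these: 5 of the 21 interferon genes held it, and of the 8 redundant genes described later 0 held it and 1, Saa3, held the response-element motif. Of the 13 genes between both ligands 7 had a window, 2 with the response-element motif and 2 with the NF-kB motif. A match describes letters in a window and is not a measured binding site.

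The libraries held 102663 to 133006 counts in the pair, 144331 to 191207 with PAM, 98306 to 212946 with CpGB and 61823 to 89530 in Ctrl. The labelled cell type was checked against marker lists. The dendritic cell genes Itgax, Ccr7, Ccl22 and H2-Aa were counted in all 4 groups, with 168, 137, 395 and 944 counts in the pair. Of the 12 genes on that list Cd209a had no count, and Flt3, Zbtb46, Dpp4 and Mgl2 had at most 4 in any group. Summed over the list, the level ran from 4613 to 4971 CPM in the pair, 4173 to 4570 with PAM, 4153 to 4820 with CpGB and 2923 to 3155 in Ctrl. Macrophage genes were also present, led by Lyz2, and summed to 12729 to 13201 CPM in the pair, 12951 to 13695 with PAM and 12402 to 12907 with CpGB. The neutrophil list summed to 800 to 1272 CPM in the pair, 940 to 1095 with PAM and 853 to 970 with CpGB. Lists for B cells, for T and NK cells, and for mast cells and basophils held no gene that passed the filter, with sums of at most 9.70 CPM in any library. Of 8 markers of plasmacytoid dendritic cells, which make much interferon on CpG, 1 passed the filter, Tcf4, and the defining marker Siglech had 0 counts with CpGB and 0 in the pair. That list summed to 56.0 to 85.9 CPM in the pair, 25.1 to 83.3 with PAM, 78.4 to 116 with CpGB and 55.4 to 99.8 in Ctrl. Tlr9, the receptor for CpGB, had 0 counts in the 12 libraries, which allows up to 1.8 CPM over them (3 counts, counting error alone).

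No gene was called beyond both single ligands. A gene was called when the adjusted p of edgeR's quasi-likelihood test was under 0.05 with at least a 2-fold difference, and 4720 genes were tested. Between Ctrl and the pair 705 genes were called, 14.9% of those tested, against 656 for PAM (13.9%) and 804 for CpGB (17%). Between the pair and PAM 37 genes were called (0.784%), of which 36 were higher in the pair (0.763%) and 1 was lower (0.0212%). Between the pair and CpGB 43 were called (0.911%), of which 11 were higher in the pair (0.233%) and 32 lower (0.678%). The single ligands differed from each other more widely, in 276 genes (5.85%), of which 55 were higher with PAM (1.17%) and 221 higher with CpGB (4.68%). The 55 became 33 without CpGB replicate 3 and 23 in DESeq2, which called 213 higher with CpGB. By the larger p of both pair comparisons, adjusted over all genes, 0 genes (0%) were above both single ligands and 0 were below both. At an unadjusted p under 0.05, 7 genes stood above both and 15 below both by at least 2-fold in edgeR, and DESeq2 also called 0 in each direction after adjustment. At the depth of these libraries that count does not show that no gene went beyond both.

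**Figure D1:**
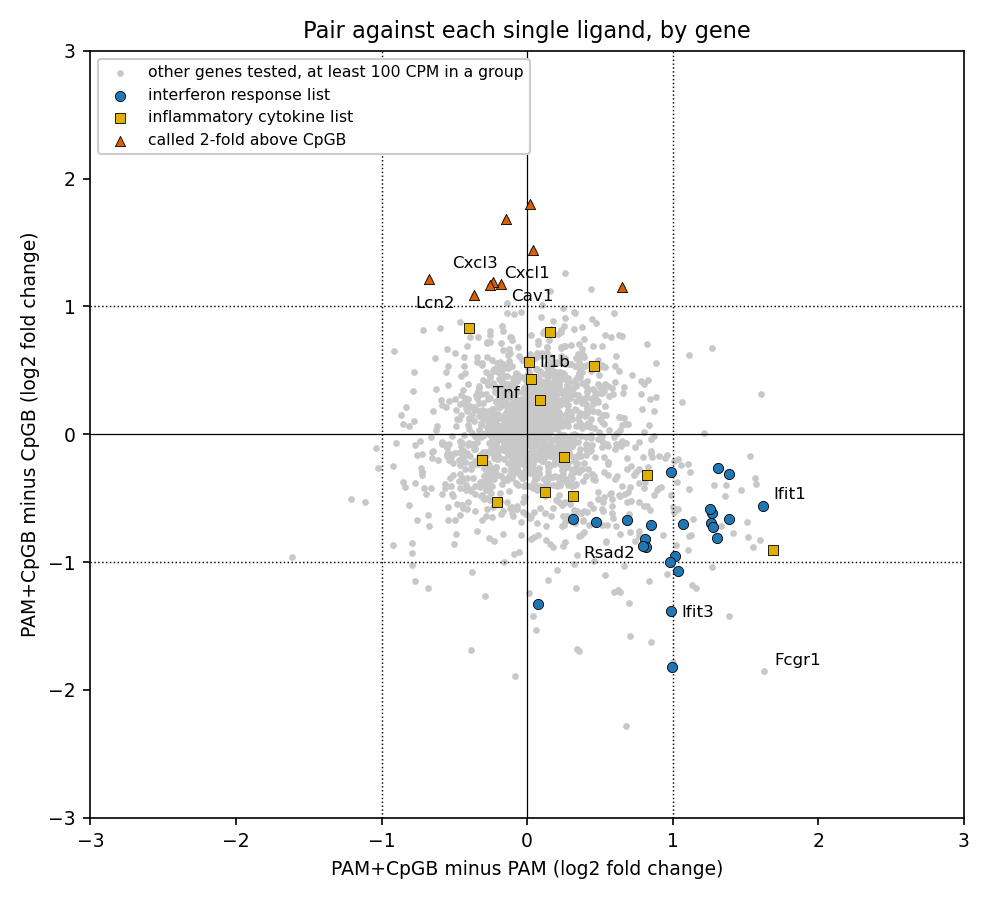
Each point is a gene with at least 100 CPM in 1 of the 3 stimulated groups (1712 genes), placed by its log2 fold change between the pair and PAM (x axis) and between the pair and CpGB (y axis), with dotted lines at 2-fold. The 24 interferon response genes shown (circles) lie to the right of 0 and below 0, the 9 genes called at least 2-fold above CpGB (triangles) lie within 2-fold of PAM, and 0 genes were called above both or below both.

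The abundant inflammatory cytokine genes Tnf, Il1b and Il6 overlapped PAM in the pair. Of these Il1b passed the edgeR test against CpGB, by less than 2-fold, so it was not called. Tnf, the gene of tumour necrosis factor, was at 7538, 8937 and 8232 CPM in the pair, 7565, 8114 and 8617 with PAM, 5473, 6699 and 6110 with CpGB, and 637, 1135 and 797 in Ctrl. The pair overlapped PAM and lay above all CpGB libraries. The difference from PAM was 0.02 on the log2 scale (95% interval −0.27 to 0.32) and from CpGB 0.43 (0.13 to 0.73, edgeR adjusted p = 0.149). Il1b, the gene of interleukin-1 beta, was at 7719, 8293 and 8584 CPM in the pair, 7926, 7757 and 8706 with PAM, 5182, 4958 and 6488 with CpGB, and 319, 362 and 259 in Ctrl. The pair again overlapped PAM, and all of its libraries were above those of CpGB. Its log2 difference was 0.01 from PAM (−0.21 to 0.23) and 0.56 from CpGB (0.34 to 0.79, edgeR adjusted p = 0.000367). Il6, the gene of interleukin-6, was at 1336, 1459 and 1448 CPM in the pair, 1463, 1207 and 1339 with PAM and 1009, 1195 and 1277 with CpGB. The pair overlapped PAM and lay above each CpGB library. Its log2 differences were 0.09 (−0.20 to 0.38) from PAM and 0.27 (−0.03 to 0.57) from CpGB, neither past the threshold. For all 3 genes the interval excluded a 2-fold difference from either single ligand.

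Of the 17 inflammatory cytokine genes tested, none passed the edgeR test against PAM, near the background of 1.33% of all genes, and 2 passed it against CpGB (1.84% of all genes), Il1a and Il1b, both higher in the pair. The list's median log2 difference was 0.16 from PAM, beside 0 over all genes, and −0.18 from CpGB, beside 0.03 over all genes. Il1a, which encodes interleukin-1 alpha, was at 2500, 2562 and 2712 CPM in the pair and 1164, 1644 and 1595 with CpGB, a log2 difference of 0.80 (SE 0.14, edgeR adjusted p = 2.4e-05). Il12b, which encodes the p40 subunit of interleukin-12, had the opposite order of the single ligands, with 165, 179 and 175 CPM with CpGB against 32.8, 25.1 and 27.8 with PAM. In the pair it was at 66.8, 141 and 64 CPM, below each CpGB library and above each PAM library, and neither difference passed the edgeR test (adjusted p = 0.462 against CpGB and 0.328 against PAM). Il23a, Csf2, Csf3, Lif and Osm did not pass the filter on low counts.

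None of the 20 genes for NF-kB subunits and their feedback inhibitors passed edgeR's test against either single ligand (DESeq2 called 0 against PAM and 1 against CpGB), beside 1.33% and 1.84% of all genes, so that a count of 0 is near the background. Of the list, 16 of the 20 had an interval within 2-fold of PAM and 16 one within 2-fold of CpGB, beside 33.8% and 31.9% of all genes. Against Ctrl 12 of them rose in the pair, 12 with PAM and 14 with CpGB (11.2%, 9.68% and 12.5% of all genes did). Nfkbia, which encodes the inhibitor IkB-alpha and is itself an NF-kB target, was at 1517, 1740 and 1704 CPM in the pair, 1647, 1553 and 1472 with PAM, 1262, 1353 and 1508 with CpGB, and 332, 474 and 509 in Ctrl. All 3 stimulated groups lay above Ctrl, and the pair overlapped PAM and lay just above CpGB, with neither difference past the test. Tnfaip3, which encodes the deubiquitinase A20, had a mean of 746 CPM in the pair, 845 with PAM and 524 with CpGB, and its log2 difference from CpGB of 0.50 missed the threshold (edgeR adjusted p = 0.067). The 8 genes of antigen presentation on MHC class II that were tested included none that passed against either ligand, also near those shares of all genes. By their intervals 7 of 8 lay within 2-fold of PAM and 8 of 8 within 2-fold of CpGB, beside the same 33.8% and 31.9%. Such shares were higher among abundant genes that responded to PAM or CpGB. For those averaging 200 CPM or more they were 78.4% against PAM and 80% against CpGB. Neither list was compared with genes of matched abundance, so these counts do not show that its members were unusually alike.

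A rule of size picked 8 abundant genes that rose at least 4-fold with both ligands and whose intervals lay within 2-fold of each: Saa3, Tnf, Il1b, Ccl3, Marco, Clec4e, Sod2 and Irg1. In all, 45 genes met that rule. Saa3, which encodes an acute phase protein, was at 11651, 11758 and 11312 CPM in the pair, 12899, 10734 and 12479 with PAM and 9102, 6658 and 7055 with CpGB, above the 360, 461 and 384 of Ctrl. Marco, a scavenger receptor gene, was at 5744, 4820 and 4528 CPM in the pair, 5544, 5098 and 4723 with PAM and 4901, 4340 and 3500 with CpGB, so that all 3 groups overlapped. Irg1, which encodes the enzyme that makes itaconate, was at 2634, 3191 and 2816 CPM in the pair, above all 3 PAM libraries (2349 to 2368) and overlapping CpGB (2397 to 2829), and neither difference passed the test. Had the rises above Ctrl added up in CPM, the pair's rise would be 100% of the sum of both single rises. Over the 8 genes it was 48.4% to 60.4% of that sum, with 59.1% for Tnf and 60.4% for Il1b. Since the genes were chosen for a pair level close to both single levels, a share near 50% follows from the choice and is a description.

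**Figure D2:**
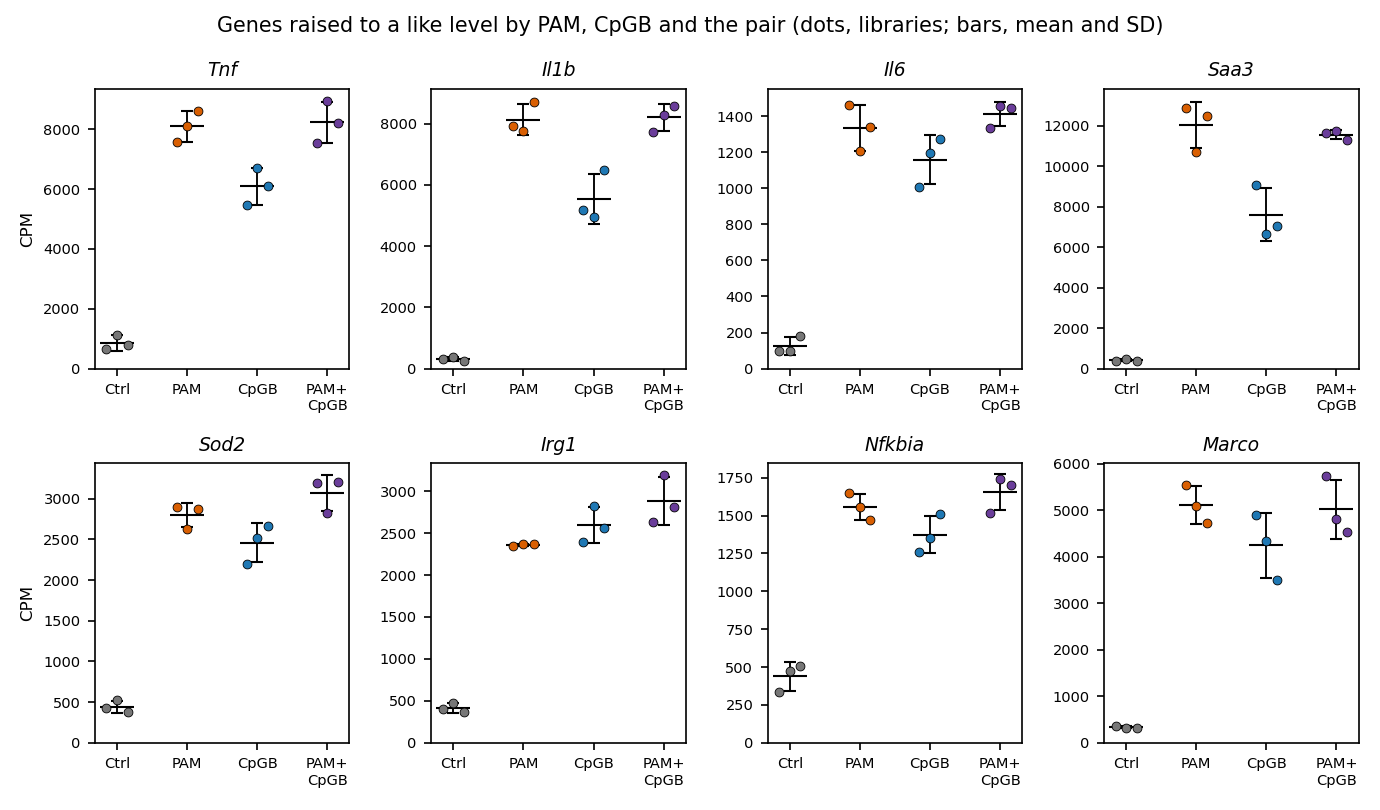
CPM of Tnf, Il1b, Il6, Saa3, Sod2, Irg1, Nfkbia and Marco in the 3 libraries of each of 4 groups (dots), with the mean and SD (bars), on axes that start at 0. In each panel the PAM, CpGB and PAM+CpGB dots sit far above Ctrl and within 2-fold of each other in mean, with the pair for Tnf at 7538 to 8937 CPM and PAM at 7565 to 8617.

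Likeness was also counted over all responding genes. With PAM or CpGB 1017 genes were called against Ctrl. For 391 of them (38.4%) the 95% interval of the pair's difference from PAM lay within 2-fold, and for 376 (37.0%) that from CpGB did, against 33.8% and 31.9% of all tested genes. The share was larger among abundant genes. Among the 245 responding genes whose mean over the 4 groups was at least 200 CPM, the intervals lay within 2-fold of PAM for 78.4% and of CpGB for 80%. The share over all tested genes of that abundance was not computed. For 572 responding genes (56.2%) against PAM and 577 (56.7%) against CpGB the data neither placed the interval within 2-fold nor passed the test. Of the 1017 genes, 60 passed it against PAM and 77 against CpGB, out of 63 (1.33%) and 87 (1.84%) over all genes tested.

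Cxcl1, Cxcl3, Cav1 and Lcn2, abundant genes that were higher with PAM than with CpGB, were called above CpGB in the pair and did not pass the test against PAM. They are described here because the pair was called above CpGB, and over all 55 genes higher with PAM the pair lay between both ligands, with a median log2 difference of −0.55 from PAM and 0.89 from CpGB. Cxcl1, which encodes a neutrophil-attracting chemokine, was at 1431, 1577 and 1392 CPM in the pair, 1699, 1629 and 1845 with PAM, 611, 618 and 687 with CpGB, and 41.6, 24.9 and 106 in Ctrl. The pair lay below all PAM libraries by a margin that did not pass the test and far above all CpGB libraries. The log2 difference was −0.23 from PAM (−0.57 to 0.11) and 1.19 from CpGB (SE 0.19, edgeR adjusted p = 3.41e-06). Cxcl3, its neighbour on chromosome 5 and of the same chemokine class, was at 9580, 8633 and 9136 CPM in the pair, 10675, 10708 and 11279 with PAM and 4153, 4340 and 3698 with CpGB. Its log2 difference from CpGB was 1.17 (SE 0.18, edgeR adjusted p = 2.16e-06), and from PAM −0.26 (−0.61 to 0.09). Both are the genes printed above with NF-kB motif matches near the start. Cxcl2, the third gene of that class on the list, differed from CpGB by 0.94 (edgeR adjusted p = 1.32e-05) and from PAM by −0.09 (−0.40 to 0.22).

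Cav1, which encodes the membrane scaffold caveolin-1, was at 1126, 1111 and 1064 CPM in the pair, 1240, 1237 and 1267 with PAM, 495, 475 and 493 with CpGB and 55.4, 49.9 and 28.8 in Ctrl. Replicates were tight and the pair lay just under PAM, with a log2 difference of −0.18 (−0.46 to 0.10) from PAM and 1.17 (SE 0.16, edgeR adjusted p = 1.46e-08) from CpGB. Lcn2, the gene of the iron-sequestering protein lipocalin-2, was at 716, 540 and 840 CPM in the pair, 912, 759 and 1022 with PAM and 243, 296 and 406 with CpGB. The pair overlapped PAM and not CpGB, with log2 differences of −0.36 (−0.69 to −0.04, edgeR adjusted p = 0.446) and 1.09 (SE 0.19, edgeR adjusted p = 1.32e-05). On the list for itaconate, arginine and iron metabolism 4 of 14 genes were higher than with CpGB (0.572% of all genes were), namely Lcn2, Saa3 and the amino acid transporter genes Slc7a2 and Slc7a11, and 0 of 14 passed against PAM. The list's median log2 difference was 0.28 from CpGB and 0.01 from PAM. Tlr2, the receptor gene itself, was at 515, 466 and 536 CPM in the pair, 440, 478 and 372 with PAM and 301, 271 and 364 with CpGB, a log2 difference of 0.68 from CpGB (SE 0.19, edgeR adjusted p = 0.0224).

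The 6 genes furthest above CpGB by the rule of size were mostly scarce: Samd8, Mki67, U90926, Cav2, Dtx4 and Rab11fip1, with log2 differences from 1.22 to 1.88 and means of 75.5 to 158 CPM in the pair. U90926, a transcript without a named function here, was at 143, 148 and 184 CPM in the pair, 197, 161 and 117 with PAM and 87.3, 30.6 and 36.9 with CpGB. Cav2, which encodes caveolin-2, the partner of caveolin-1, had a mean of 136 CPM in the pair, 152 with PAM and 37.2 with CpGB. Samd8 missed the threshold under 8 of 16 other settings, Mki67 under 9 of 16 and Rab11fip1 under 10 of 17. Dtx4 did so under 6 of 16, U90926 under 5 of 17 and Cav2 under 4 of 16.

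Genes of the interferon response were higher in the pair than with PAM and lower than with CpGB. Of 26 genes tested on the list, 14 were higher in the pair than with PAM (1.31% of all genes were) and 0 were lower, and 16 were lower than with CpGB (1.27% of all genes were) and 0 were higher. The median log2 difference was 1.01 from PAM, beside 0 over all genes, and −0.71 from CpGB, beside 0.03. Summed over the list, the level was 10840, 12987 and 11080 CPM in the pair, 5833, 5942 and 6262 with PAM, 14973, 22822 and 21257 with CpGB, and 3338, 4103 and 2986 in Ctrl. The groups did not overlap, and the CpGB libraries varied most, with replicate 1 the lowest. Against Ctrl 22 of the 26 genes rose in the pair (11.2% of all genes did), 24 with CpGB (12.5%) and 9 with PAM (9.68%). Tcf4, the tested plasmacytoid marker, had the same order, with means of 54.8 CPM in the pair, 27.1 with PAM and 81.4 with CpGB. It was called between the single ligands alone (log2 difference of PAM from CpGB −1.57). The scarce markers of that list did not share 1 order. With PAM, CpGB and the pair, Spib had 4, 1 and 0 counts, Runx2 8, 6 and 5, Siglech 1, 0 and 0, and Ccr9 0, 2 and 1. The part of such cells in the interferon result was not tested. The 16 genes lower than with CpGB became 9 without pair replicate 1, 9 without pair replicate 3, 10 without CpGB replicate 2 and 9 without CpGB replicate 3, and the 14 higher than with PAM became 8 without pair replicate 2. With the libraries thinned to equal totals they became 4 and 6, while the medians were −0.79 and 1.03.

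Ifit1, which encodes an RNA-binding antiviral protein, was at 897, 1229 and 1056 CPM in the pair, 295, 382 and 356 with PAM, 1174, 2027 and 1443 with CpGB, and had a mean of 218 in Ctrl. The pair lay above all PAM libraries and overlapped the lowest CpGB library. It was higher than with PAM by 1.62 on the log2 scale (SE 0.19, edgeR adjusted p = 2.54e-12), and lower than with CpGB by a log2 difference of −0.56 (SE 0.16, edgeR adjusted p = 0.0273). Isg15, a ubiquitin-like modifier gene, was at 477, 585 and 568 CPM in the pair, 171, 191 and 261 with PAM and 699, 990 and 862 with CpGB, so that the 3 groups did not overlap. Its log2 differences were 1.39 from PAM (SE 0.21, edgeR adjusted p = 4.31e-07) and −0.66 from CpGB (SE 0.18, edgeR adjusted p = 0.014). Ifit3 was called against CpGB alone, with means of 357 CPM in the pair, 179 with PAM and 907 with CpGB, and log2 differences of −1.38 (edgeR adjusted p = 1.3e-05) and 0.99 (edgeR adjusted p = 0.076). Ifnb1, which encodes interferon beta, had means of 7.60 CPM in the pair, 20.5 with PAM, 22.5 with CpGB and 12 in Ctrl, and no difference between stimulated groups passed the test.

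**Figure D3:**
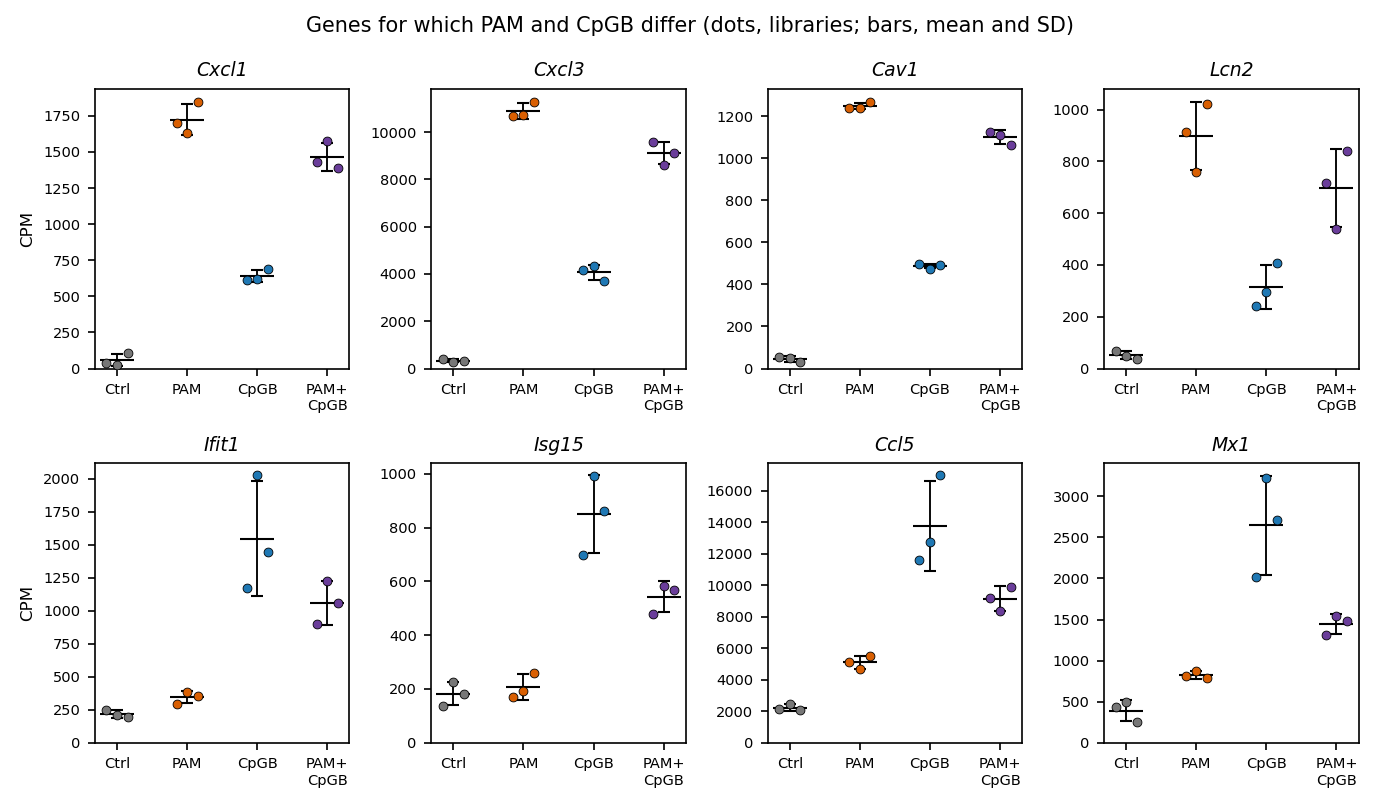
CPM of 8 genes in the 3 libraries of each of 4 groups (dots), with the mean and SD (bars), on axes that start at 0. In the upper row, Cxcl1, Cxcl3, Cav1 and Lcn2, the pair sits near PAM and above CpGB. In the lower row, Ifit1, Isg15, Ccl5 and Mx1, the pair's mean sits between PAM and CpGB, with libraries at 1307 to 1547 CPM for Mx1. For Ifit1 the pair's dots overlap those of CpGB.

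Tested by the larger p of both comparisons, 13 genes (0.275%) lay above PAM and below CpGB, and 0 lay above CpGB and below PAM. They included Ccl4, Ccl5, Ifi204, Ifit2, Ifitm3, Irf7, Mx1, Oasl2, Pyhin1, Rsad2, Samhd1 and Slfn5. Rsad2, which encodes the antiviral enzyme viperin, was at 1269, 1584 and 1368 CPM in the pair, 800, 824 and 783 with PAM, 1747, 2997 and 2628 with CpGB and 720, 698 and 490 in Ctrl. The 3 stimulated groups were apart, with log2 differences of 0.81 from PAM (SE 0.18, edgeR adjusted p = 0.002) and −0.82 from CpGB (SE 0.17, edgeR adjusted p = 0.00044). Mx1, an interferon-induced GTPase gene, was at 1307, 1547 and 1488 CPM in the pair, 807, 875 and 789 with PAM and 2018, 3222 and 2707 with CpGB, again without overlap. Irf7, the interferon regulatory factor that acts downstream of TLR9, was at 401, 578 and 504 CPM in the pair, 210, 231 and 294 with PAM and 786, 950 and 1116 with CpGB, with log2 differences of 1.02 and −0.95 (edgeR adjusted p = 0.00123 and 0.000185). The count rested on single libraries: it was 2 without CpGB replicate 3, 4 without pair replicate 1, 4 without pair replicate 2, 6 without pair replicate 3, 8 without PAM replicate 1, 8 without CpGB replicate 2, and 21 without CpGB replicate 1.

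Among chemokine genes both patterns were present, and 17 were tested. Ccl4 and Ccl5, chemokines that attract T cells and monocytes, and Cxcl10, a ligand of CXCR3 that interferon induces, were the 3 genes higher in the pair than with PAM (1.31% of all genes were) and were also the 3 genes lower than with CpGB (1.27%). Ccl5 was at 9218, 8330 and 9904 CPM in the pair, 5144, 4660 and 5500 with PAM, 11577, 12759 and 16988 with CpGB and 2133, 2470 and 2074 in Ctrl. Its log2 differences were 0.84 from PAM (SE 0.14, edgeR adjusted p = 1.01e-05) and −0.59 from CpGB (SE 0.14, edgeR adjusted p = 0.00419), with no overlap between groups. The 3 genes higher in the pair than with CpGB (0.572% of all genes were) were Cxcl1, Cxcl2 and Cxcl3. Ccl3, Ccl9, Ccl17 and Ccl22 had means within 2-fold of each other in the 3 stimulated groups, 5915 CPM in the pair, 4624 with PAM and 6565 with CpGB for Ccl3. On the list for maturation and costimulation 2 of 12 genes were higher than with PAM (1.31% of all genes were), Cd40 and Cd274, and 0 of 12 passed the test against CpGB (1.84% of all genes did). Cd40, the receptor for T cell help, was at 601, 800 and 608 CPM in the pair, 387, 372 and 322 with PAM and 650, 914 and 687 with CpGB, a log2 difference from PAM of 0.90 (SE 0.19, edgeR adjusted p = 0.00058).

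**Figure D4:**
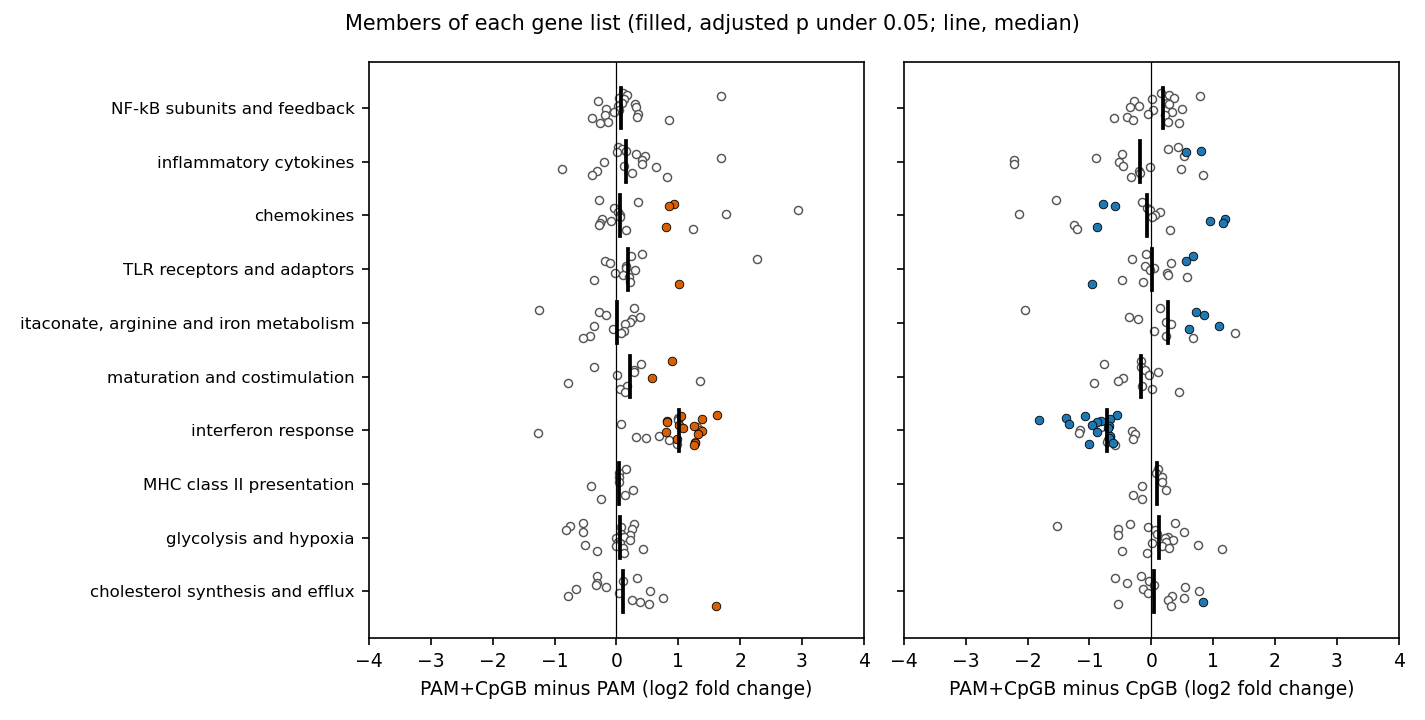
Each point is a tested member of 1 of 10 gene lists, placed by the log2 fold change between the pair and PAM (left) or the pair and CpGB (right), with lists on the vertical axis, filled points for an edgeR adjusted p under 0.05 and a line at the list's median. The interferon response list is shifted to the right of 0 on the left (median 1.01) and to the left of 0 on the right (median −0.71), while the lists for NF-kB, MHC class II and glycolysis have no filled point.

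The genes furthest from PAM by size were Pim1, Rbm43, Ifit1, Ch25h, Phf11b and Gbp7. Ch25h, which makes 25-hydroxycholesterol and is interferon-inducible, was at 95.4, 207 and 104 CPM in the pair, 52.5, 40.2 and 44.4 with PAM and 67.9, 107 and 138 with CpGB. Gbp7, a guanylate-binding protein gene, was at 172, 215 and 168 CPM in the pair, 45.9, 75.4 and 61.1 with PAM and 165, 337 and 203 with CpGB. Both lay above PAM and overlapped CpGB, with log2 differences from PAM of 1.61 (edgeR adjusted p = 0.016) and 1.57 (edgeR adjusted p = 0.000138). Pim1, a kinase gene, rested on 8 counts with PAM and 24 in the pair, and missed the threshold under 7 of 17 other settings, as Rbm43 did under 6 of 16 and Ch25h under 5 of 17. The 1 gene called lower than with PAM was Sptan1, which encodes a spectrin, at 47.7, 59.2 and 32.0 CPM in the pair and 177, 106 and 156 with PAM, and it missed the threshold under 4 of 17 settings.

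The 6 genes furthest below CpGB by size were Gm14446, Apobec3, Ehd4, Stard3nl, Fcgr1 and Isg20. Fcgr1, which encodes the high-affinity IgG receptor, was at 85.9, 88.8 and 40.0 CPM in the pair, 13.1, 20.1 and 33.3 with PAM, 213, 214 and 327 with CpGB and 55.4, 49.9 and 76.8 in Ctrl. The pair was below all CpGB libraries and above all PAM libraries, with a log2 difference from CpGB of −1.85 (SE 0.40, edgeR adjusted p = 0.000273) and from PAM of 1.63 (edgeR adjusted p = 0.23). Isg20, an exonuclease gene, was at 105, 22.2 and 32.0 CPM in the pair against 146, 138 and 231 with CpGB, and missed the threshold under 4 of 17 settings. Ehd4, a membrane trafficking gene, was at 28.6, 37.0 and 40.0 CPM in the pair, 52.5, 15.1 and 50.0 with PAM, 97.0, 123 and 166 with CpGB and 152, 162 and 106 in Ctrl, so the pair stood at the PAM level, under Ctrl. Apobec3, an antiviral deaminase gene, rested on 7 counts in the pair, 19 with PAM and 44 with CpGB and missed the threshold under 5 of 17 settings, and Stard3nl did so under 12 of 16. The count of genes called against CpGB was 24 without CpGB replicate 3 and 28 without pair replicate 2, and the count against PAM was 22 without pair replicate 2.

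Between the single ligands themselves, the genes furthest above with PAM were Lox, Mdp1, Ciapin1, Ampd3, Fcho1 and Arrb1, and those furthest above with CpGB were Slc28a2, Ccl12, Fam129a, Rgs14, Fcgr1 and I830012O16Rik. Mdp1 missed the threshold under 14 of 16 other settings, Arrb1 under 9 of 16 and Rgs14 under 6 of 15. Most had few counts: Lox, a collagen cross-linking enzyme gene, had 27 counts with PAM and 2 with CpGB, a ratio of 13.1 (exact 95% interval 3.29 to 114, counting error alone), and 11 in the pair. Ccl12, a monocyte chemokine gene, had 20 counts with CpGB and 1 with PAM, a ratio of 20.6 (3.30 to 854), and 3 in the pair. For the 221 genes higher with CpGB, the pair's median log2 difference was 0.85 from PAM and −0.71 from CpGB, and the 55 genes higher with PAM also lay between, as given above. Those genes were chosen with the same single-ligand libraries, so these medians are a description.

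On the log2 scale the effects did not add. The interaction, the pair minus PAM minus CpGB plus Ctrl, passed the edgeR test for 467 genes (9.89%), of which 322 were negative and 145 positive (3.07%). A negative value means that the pair's log2 rise was smaller than the sum of both single rises. It was −4.15 for Il1b (SE 0.22), −2.81 for Tnf (SE 0.25), −3.59 for Cxcl1 (SE 0.52), −1.25 for Ifit1 (SE 0.31) and −0.85 for Isg15 (SE 0.34, edgeR adjusted p = 0.0902). All but Isg15 passed. Il1b and Tnf were picked above for a rise of at least 4-fold with each ligand and a pair level within 2-fold of both. A negative interaction follows from that choice, so their values are a description. On the inflammatory list 11 of 17 genes had a negative interaction that passed, on the NF-kB list 11 of 20 and on the interferon list 19 of 26, beside 6.82% of all genes. The split of signs depended on the scaling, with 283 negative and 196 positive when the libraries were scaled by relative log expression, and 258 and 223 by library size alone.

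The count of genes beyond both single ligands was set beside that of 3 of the pairs that share a ligand with PAM+CpGB. By the same rule PAM+LPS had 38 genes above both (0.805%) and 10 below both (0.212%). LPS+CpGB had 25 (0.53%) and 3 (0.0636%), and PAM+cGAMP had 69 (1.46%) and 8 (0.169%). LPS is lipopolysaccharide, a TLR4 ligand, and cGAMP is the cyclic dinucleotide that activates STING. Levels with LPS or cGAMP alone are not given here, so their own effects are not separated from the pairing. The difference between these counts was not tested, and these pairs were mostly deeper, with 116312 to 333995 counts in PAM+LPS, 130507 to 228111 in LPS+CpGB and 128242 to 175039 in PAM+cGAMP. Il6 was at 1336 to 1459 CPM in PAM+CpGB, 3809 to 4283 in PAM+LPS, 2971 to 3009 in LPS+CpGB and 5639 to 6145 in PAM+cGAMP. Il6 in PAM+CpGB lay below all 9 of those libraries, with log2 differences of −1.54, −1.08 and −2.06 (edgeR adjusted p = 3.4e-20, 5.6e-11 and 2.5e-31). Ifit1 was also lower in PAM+CpGB, by log2 differences of −2.20, −2.11 and −2.77, each past the threshold, in comparisons where 14.7%, 10.6% and 12.4% of all genes were lower.

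**Figure D5:**
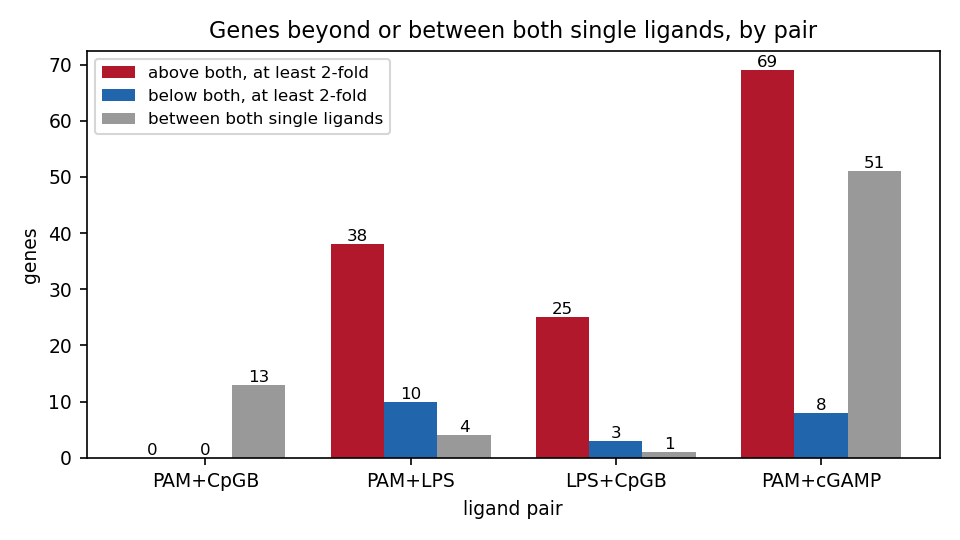
Bars give the number of genes (vertical axis) above both single ligands, below both, or between them for 4 ligand pairs, by the larger p of both comparisons adjusted over 4720 genes. PAM+CpGB has 0 above, 0 below and 13 between, and PAM+cGAMP has 69, 8 and 51.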

How the data were processed

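The authors deposited 1 table of whole-number counts of unique molecular identifiers per gene symbol, without normalization. Per the submitters' processing notes BWA 0.7.15 and mm10 were used; how reads that match several genes were counted is not given in the sources used here, so close relatives (the Ifit, Ifi200, Gbp, Ccl3 and Ccl4 families) are uncertain. Counts were fitted in R 4.3.3 with edgeR 4.0.16: filterByExpr by group kept 4720 of 23481 genes and 95.7% of counts, libraries were scaled with TMM factors, and 1 quasi-likelihood model with 1 coefficient per group took the libraries of all 64 groups (128 residual degrees of freedom, common biological coefficient of variation 10.3%). P-values were adjusted by Benjamini-Hochberg over the genes tested. CPM, log2 fold changes, standard errors and 95% intervals were computed here. Libraries held 46564 to 610234 counts over the series, which leaves genes under about 50 CPM with a handful of counts each. By the rule for named genes, each comparison gave its 6 most raised and 6 most lowered called genes (at least 20 CPM in a group, groups not overlapping), the interaction its 5 most positive and 5 most negative (at least 50 CPM), and the redundant genes their 8 most abundant; members of the fixed gene lists could also be named, and Cav1 and the genes between both ligands were chosen after their values were seen. The members and lists were chosen with earlier results of these data known. Alternatives were other scalings, filters, fold thresholds and interval widths, DESeq2 1.42.0, the 12 libraries alone, thinning to equal totals, a replicate block and leaving out each library. Replicates differed by more than counting noise (chi-square per degree of freedom 1.11 to 1.41), and the fitting script was tested on simulated data. The ligands' own sequences were not used here. Some genes are not reported here.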

Additional observations from a re-analysis of the deposited data

Results flagged for a closer look

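The effect of 1 ligand differed with and without the other, by edgeR's interaction test, for 467 genes. The 5 most positive values belonged to genes that fell with both ligands: Daglb at 5.49, Lrmp at 4.76, Arl11 at 4.57, Adssl1 at 4.46 and Hip1 at 4.33 on the log2 scale. Each had its highest count in Ctrl, from 15 for Arl11 to 46 for Daglb: Daglb had 46 counts there, 6 with PAM, 3 with CpGB and 7 in the pair, and Hip1 had 26, 8, 2 and 5. The call was lost under 10 of 22 other settings for Arl11, 7 of 23 for Adssl1 and 5 of 23 for Hip1. The 5 most negative were Med11 at −6.25, Upp1 at −6.22, Cxcl5 at −6.18, Gm6377 at −5.98 and Slco3a1 at −5.92. Med11, Upp1, Cxcl5 and Gm6377 had 0 counts in Ctrl, so these values depend on the model's prior count and are no bound. Against a floor of 3 counts over the Ctrl group, Cxcl5, a neutrophil chemokine gene, was at least 4.92-fold higher in the pair, at least 4.35-fold higher with PAM and at least 5.14-fold higher with CpGB. Slco3a1, a transporter gene, had 1 count in Ctrl and 78 in the pair, a ratio of 54.8 (exact 95% interval 9.56 to 2194, counting error alone), and 112 counts with PAM and 147 with CpGB.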

How the results depend on the processing

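The counts of 0 genes above both and 0 below both single ligands were the same under every alternative run. Leaving out a single library gave 22 to 44 genes against PAM, 24 to 44 against CpGB (for libraries of the groups compared; 54 without Ctrl replicate 1 and 53 without Ctrl replicate 2), 383 to 456 interactions and 2 to 21 genes between both ligands; leaving out a replicate number from all groups lowered these to as few as 21, 11, 290 and 0. With no fold threshold 63, 87 and 418 genes passed (pair against PAM, pair against CpGB, PAM against CpGB), and with 1.5-fold 59 and 80 for the pair. Thinned to equal totals of 61823 counts, 14 genes passed against CpGB, 143 between the single ligands, 295 interactions and 3 between both ligands, and 234 and 228 of 802 responding genes lay within 2-fold of PAM and of CpGB. Without thinning, 133 and 95 of the 1017 lay within 1.5-fold. The 12 libraries alone gave 32 genes between both ligands. With a replicate block the counts were 36, 45 and 279, with 487 interactions and 15 between both ligands; the numbers do not pair the samples (correlations over the 4 groups −0.0255 to 0.050 for the same number, −0.037 to 0.028 for different ones). The Hip1 interaction ran from −0.0995 (without replicate 3 of all groups) to 5.68 over the libraries left out, and was 0.04 without pair replicate 3. Of the called values of named genes, 567 kept their call over the alternatives, 172 lost it and 1 reversed; the cause was not tested. Scaling by library size alone moved the median of all genes against Ctrl by −0.18 to −0.24, and genes under about 50 CPM are limited by depth.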
